A study of Homo sapiens with 4 samples.

Results

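The genes of shelterin, of the CST complex and of the tankyrases were followed across 4 derivatives of PC-3, a widely used human cell line grown from a bone metastasis of a prostate cancer. The members were all probe sets whose platform annotation gives TERF1, TERF2, TERF2IP, TINF2, ACD, POT1, CTC1, STN1, TNKS or TNKS2 as the only gene symbol, which gave 27 of the 54613 probe sets tested and all 10 genes, out of 19775 genes with a probe set of their own. Shelterin is the protein complex that coats the repeat DNA at chromosome ends, hides it from the DNA damage response and controls access of telomerase, the enzyme that extends it. CST binds the single-stranded end, stops telomerase and brings in DNA polymerase alpha to fill in the other strand. Tankyrases attach poly(ADP-ribose) to TRF1, the product of TERF1, which releases it from the telomere and lets telomerase in.

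All 4 lines were PC-3 cells, grown without treatment to near confluency, and each was measured on 1 array. The short-telomere group held mock, a control with basal hTERT, and mock/cre+, its Cre-treated counterpart, also with basal hTERT. Long telomeres were labelled for 2 lines, LhTERTL, described as overexpressing hTERT, the catalytic subunit of telomerase, and LhTERTL/cre+, with hTERT back at the basal level. The labels do not say which vector or promoter was used, whether a line is a clone, or how long the telomeres are. In the long-telomere lines Cre and the loss of exogenous hTERT cannot be told apart. Within a group the 2 arrays come from distinct lines, so a p-value here reflects how far these particular lines vary, and the smallest two-sided p that exact permutation allows with 2 arrays a side is 0.333.

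Values are log2, centred by the authors' processing so that the median of each probe set over the 4 arrays is 0. A value is therefore a position relative to the other arrays, no expression level is known, and whether a gene was expressed well or barely cannot be read. TERT, the hTERT gene, stood at 3.54 in LhTERTL on 1 of its 2 probe sets and between -0.16 and 0.12 in the other 3 lines, so the high value was in the line labelled as overexpressing it. The other TERT probe set stood at -0.66 in LhTERTL. The SD over all probe sets ran from 0.179 in LhTERTL/cre+ to 0.335 in LhTERTL. Of 5 epithelial marker genes (EPCAM, KRT8, KRT18, KRT19 and CDH1), 0 passed the test between telomere groups, as no gene on the array did. Their mean ran from -0.08 to 0.10 in the short group and from -0.22 to 0.21 in the long group. That mean hides markers that went different ways between the long-telomere lines. CDH1 stood at 0.94 in LhTERTL and -0.74 in LhTERTL/cre+, and EPCAM at 0.47 and -0.68. KRT19 went the other way, at -0.34 and 0.26, while KRT8 and KRT18 stayed between -0.04 and 0.04. The leukocyte, fibroblast and endothelial marker lists also held 0 genes past the test. Centred values cannot show which of these markers were absent.

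RefSeq promoter windows are shown for TINF2, POT1 and STN1, whose gene means were higher in both long-telomere lines than in both short-telomere lines, and for TERF2IP, which differed most between lines. Each is the 250 bases before the gene's start on the gene's strand (GRCh38.p14), with capitals marking matches on either strand to the GC box GGGCGG, the ETS core CCGGAA, the CCAAT box CCAAT and the E-box CACGTG.
TINF2, chr14:24242675-24242924, minus strand: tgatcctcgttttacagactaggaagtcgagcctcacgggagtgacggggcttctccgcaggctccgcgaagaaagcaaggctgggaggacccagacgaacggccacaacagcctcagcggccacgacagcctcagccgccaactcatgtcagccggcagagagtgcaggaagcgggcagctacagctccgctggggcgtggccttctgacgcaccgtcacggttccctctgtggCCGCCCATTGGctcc
POT1, chr7:124929826-124930075, minus strand: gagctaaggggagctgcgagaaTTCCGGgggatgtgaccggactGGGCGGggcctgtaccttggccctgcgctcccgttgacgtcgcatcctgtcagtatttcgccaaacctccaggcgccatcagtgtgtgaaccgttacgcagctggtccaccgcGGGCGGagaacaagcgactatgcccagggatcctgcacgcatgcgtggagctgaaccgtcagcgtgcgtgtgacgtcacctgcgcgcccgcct
STN1, chr10:103918185-103918434, minus strand: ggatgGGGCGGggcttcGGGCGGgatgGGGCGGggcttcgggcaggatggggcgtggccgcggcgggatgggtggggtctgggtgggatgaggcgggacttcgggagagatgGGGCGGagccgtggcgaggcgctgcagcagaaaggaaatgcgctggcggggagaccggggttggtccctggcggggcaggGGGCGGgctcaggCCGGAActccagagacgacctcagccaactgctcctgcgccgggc
TERF2IP, chr16:75647523-75647772, plus strand: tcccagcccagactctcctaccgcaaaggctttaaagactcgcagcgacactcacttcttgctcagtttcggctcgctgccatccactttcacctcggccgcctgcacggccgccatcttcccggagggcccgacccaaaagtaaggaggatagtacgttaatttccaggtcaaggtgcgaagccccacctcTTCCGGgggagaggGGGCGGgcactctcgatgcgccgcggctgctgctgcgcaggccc
The STN1 window held 5 GC boxes and 1 ETS core, and that of TINF2 held 1 GC box directly followed by 1 CCAAT box. The POT1 window held 2 GC boxes and 1 ETS core, and that of TERF2IP 1 of each. Windows of 6 members were read, the others being TNKS2 and ACD. A GC box was found in 5 of the 6, against 42.6% of 35116 RefSeq windows of the same length. An ETS core was found in 3 of the 6 (14.5% of all windows), a CCAAT box in 1 (32.0%) and an E-box in 1, that of TNKS2 (6.34%). A match is only a run of letters and was not tested for binding. GC content was 62.8% in the TERF2IP window and 74.0% in the STN1 window, with a median of 58.0% over all windows. Member windows were taken only at the annotated gene start, a filter not applied to the 35116 windows. The motif shares and the GC median are therefore not like for like with the members.

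Telomere length was compared first, long against short over the 4 arrays. None of the 27 member probe sets and none of the 10 genes passed the test (limma, two-sided, Benjamini-Hochberg adjusted over all features, adjusted p = 1.0 for each member), and 0.0% of all probe sets and 0.0% of all genes were called higher or lower. At an unadjusted p under 0.05 (limma), 2 of the 27 member probe sets were found, 1 of STN1 and 1 of TNKS, where 1.27% of all probe sets were, and 0 of the 10 genes, where 0.789% of all genes were. These counts moved with single arrays: over all probe sets 695 became 3167 without LhTERTL/cre+ and 1650 without mock, while the member count became 0 without either long-telomere array and 1 without either short-telomere array. The member count was also 0 with Cre status as a block, with array medians subtracted, or over probe sets with 1 symbol alone. It was 1 with arrays scaled to equal SD and stayed at 2 under the alternative priors. Over all genes, 156 became 1303 without LhTERTL/cre+ and 575 without mock, and the member genes stayed at 0. The median difference of the member genes was 0.06 against -0.01 for all genes, and the median size of the difference without its sign was 0.12 against 0.10. Both long arrays lay above both short arrays in 7 of the 27 member probe sets, where 12.1% of all probe sets did so, and below them in 2, where 12.7% did. The 7 were 3 of TINF2, which correlated at 0.88 to 0.97 over the 4 arrays, 2 of POT1 and 1 each of STN1 and TNKS2. Probe sets of the same gene are not separate observations. By gene mean, both long arrays lay above both short ones in 3 of the 10 genes (11.4% of all genes). They lay below in 1 (11.7%).

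**Figure D1:**
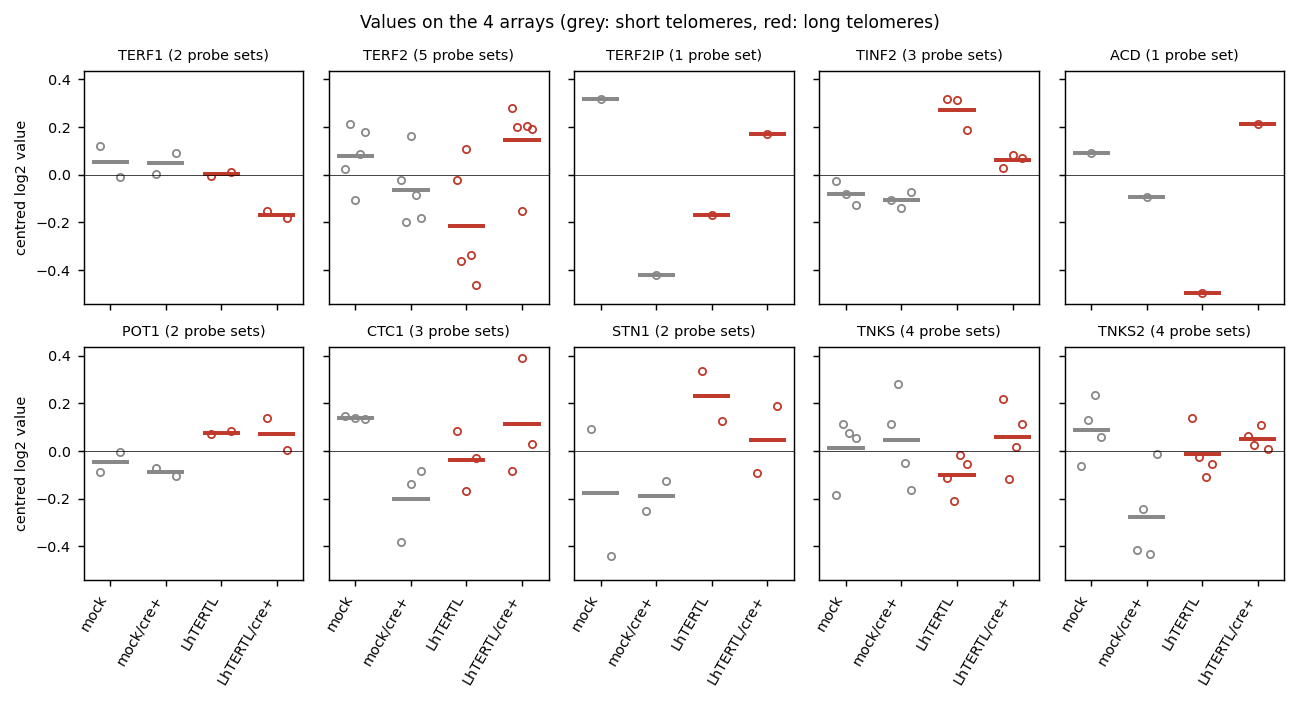
Centred log2 values (vertical axis) of the 10 genes on the 4 arrays, with an open circle for each probe set and a bar for the mean over probe sets; grey is short and red is long telomeres. TINF2, POT1 and STN1 have both red bars above both grey bars, while ACD and TERF2 are lowest in LhTERTL and TERF2IP, CTC1 and TNKS2 lowest in mock/cre+.

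Among the shelterin genes, TINF2 and POT1 stood higher in both long-telomere lines. TINF2 encodes TIN2, which bridges the duplex-binding proteins TRF1 and TRF2 to the end-binding part of the complex. The TINF2 gene mean was -0.08 in mock, -0.11 in mock/cre+, 0.27 in LhTERTL and 0.06 in LhTERTL/cre+, so both long-telomere lines stood above both short ones, as in 11.4% of all genes. The difference was 0.26 ± 0.13 (long minus short, log2, SE, n = 2 per group), with a 95% interval from -0.10 to 0.61 (limma). LhTERTL was 0.35 above mock, and LhTERTL/cre+ was 0.17 above mock/cre+. All 3 probe sets had both long arrays above both short ones, with differences from 0.23 to 0.31. LhTERTL/cre+ was 0.21 below LhTERTL, and mock/cre+ was 0.03 below mock.

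POT1 binds the single-stranded telomeric end and is held there by TPP1, the product of ACD. Its gene mean was -0.05 in mock, -0.09 in mock/cre+, 0.08 in LhTERTL and 0.07 in LhTERTL/cre+. The groups did not overlap, in the gene mean or in either of its 2 probe sets, but the whole range over the 4 arrays was only 0.17. The difference was 0.14 ± 0.11 (long minus short, log2, SE, n = 2 per group), with a 95% interval from -0.16 to 0.44 (limma). The pairs gave 0.12 without Cre and 0.16 with Cre. The 2 long-telomere lines, of which 1 overexpressed hTERT, were 0.01 apart.

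ACD went a different way from its partner. Its single probe set stood at 0.09 in mock, -0.09 in mock/cre+, -0.50 in LhTERTL and 0.21 in LhTERTL/cre+. The long-telomere lines were thus the lowest and the highest of the 4, 0.71 apart. LhTERTL was 0.59 below mock, and LhTERTL/cre+ was 0.31 above mock/cre+. The difference between groups was -0.14 ± 0.27 (long minus short, log2, SE, n = 2 per group), with a 95% interval from -0.89 to 0.60 (limma).

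TERF1 and TERF2 encode TRF1 and TRF2, related proteins that bind duplex telomeric repeats; TRF1 limits telomere length and TRF2 holds the end in its protected loop. The TERF1 gene mean was 0.06 in mock, 0.05 in mock/cre+, 0.00 in LhTERTL and -0.17 in LhTERTL/cre+. Both long-telomere lines lay below both short ones, as in 11.7% of all genes. The difference was -0.13 ± 0.12 (long minus short, log2, SE, n = 2 per group), with a 95% interval from -0.47 to 0.20 (limma). Its 2 probe sets were close, at -0.14 and -0.12, although the groups overlapped in 1 of them.

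The TERF2 gene mean was 0.08 in mock, -0.07 in mock/cre+, -0.21 in LhTERTL and 0.15 in LhTERTL/cre+. As for ACD, the 2 long-telomere lines were the lowest and the highest. Its difference between groups was -0.04 ± 0.17 (log2, SE, n = 2 per group), with a 95% interval from -0.51 to 0.43 (limma). The 5 TERF2 probe sets did not go together. In 235872_at, 1555185_x_at and 229790_at, LhTERTL was 0.64, 0.58 and 0.42 below mock, and LhTERTL/cre+ was 0.37, 0.40 and 0.29 above mock/cre+. In 203611_at the order was turned, with LhTERTL 0.22 above mock and LhTERTL/cre+ 0.31 below mock/cre+. Without 203611_at, a choice made after its values were seen, the TERF2 mean stood at -0.42 without Cre and 0.34 with Cre, in place of -0.29 and 0.21. Which exons these probe sets target was not analysed here.

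TERF2IP encodes RAP1, which is held at telomeres by TRF2 and also acts in NF-kappaB signalling. Its single probe set stood at 0.32 in mock, -0.42 in mock/cre+, -0.17 in LhTERTL and 0.17 in LhTERTL/cre+. The short-telomere lines were the highest and the lowest here, 0.74 apart, the widest range of the 10 genes. LhTERTL was 0.49 below mock and LhTERTL/cre+ was 0.59 above mock/cre+. The difference between groups was 0.05 ± 0.30 (log2, SE, n = 2 per group), with a 95% interval from -0.77 to 0.87 (limma).

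**Figure D2:**
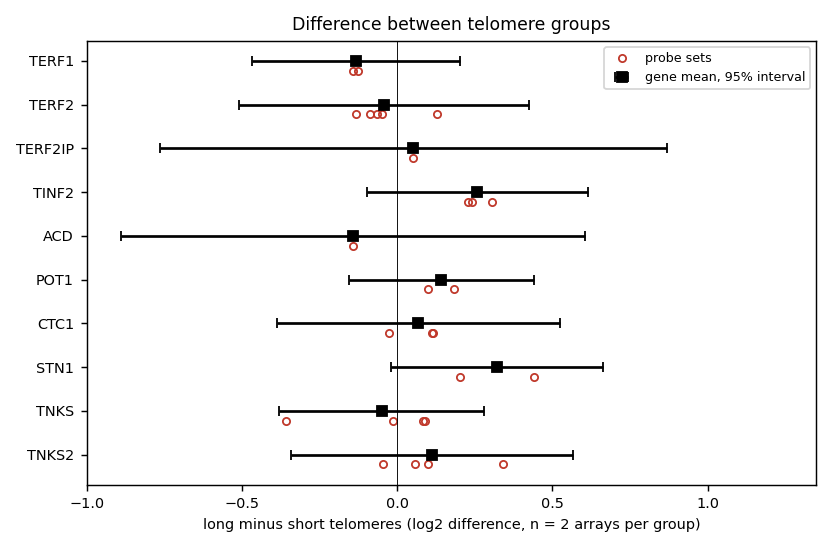
Difference between long- and short-telomere arrays (horizontal axis, log2, n = 2 per group) for each gene, with black squares and bars for the gene mean and its 95% interval and red circles for the probe sets. All 10 intervals include 0; STN1, at 0.32, comes closest to leaving it out.

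STN1 and CTC1 are the measured members of CST. STN1 anchors the complex to DNA polymerase alpha, and CTC1 is its largest subunit. The STN1 gene mean was -0.17 in mock, -0.19 in mock/cre+, 0.23 in LhTERTL and 0.05 in LhTERTL/cre+. Both long-telomere lines stood above both short ones, with LhTERTL 0.41 above mock and LhTERTL/cre+ 0.24 above mock/cre+. The difference was 0.32 ± 0.13 (long minus short, log2, SE, n = 2 per group), with a 95% interval from -0.02 to 0.66 (limma). The 2 STN1 probe sets both stood higher in the long line of each pair but ranked the 4 lines differently. In 228781_at the groups did not overlap and mock, at -0.44, was the lowest (0.44 ± 0.16, limma, unadjusted p = 0.0474). In 219100_at mock stood at 0.09, above LhTERTL/cre+ at -0.09, and both lines with Cre lay below both without it, as they did in 2 of the 27 member probe sets and in 19.6% of all probe sets.

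The CTC1 gene mean was 0.14 in mock, -0.20 in mock/cre+, -0.04 in LhTERTL and 0.11 in LhTERTL/cre+. The groups overlapped, with mock/cre+ lowest and mock highest. LhTERTL was 0.18 below mock and LhTERTL/cre+ was 0.31 above mock/cre+. All 3 probe sets had these opposite directions. The difference between groups was 0.07 ± 0.17 (log2, SE, n = 2 per group), with a 95% interval from -0.39 to 0.52 (limma). TEN1, the remaining subunit, had no probe set that names it alone and is not analysed here.

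TNKS and TNKS2 encode the 2 tankyrases. The TNKS gene mean was 0.01 in mock, 0.05 in mock/cre+, -0.10 in LhTERTL and 0.06 in LhTERTL/cre+, a range of only 0.16. Its difference was -0.05 ± 0.12 (long minus short, log2, SE, n = 2 per group), with a 95% interval from -0.38 to 0.28 (limma). That mean hides a split among its 4 probe sets. In 216695_s_at both long arrays lay below both short ones, with LhTERTL at -0.21 and LhTERTL/cre+ at -0.12 against 0.12 in mock and 0.28 in mock/cre+ (-0.36 ± 0.13, limma, unadjusted p = 0.0488). The other 3 stood between -0.01 and 0.09. In 1569391_at both lines with Cre were above both lines without it, the only member probe set of which this holds (16.9% of all probe sets), by 0.30 in the mock pair and 0.33 in the LhTERTL pair (limma, unadjusted p = 0.0480 for Cre against no Cre, adjusted p = 0.789).

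**Figure D3:**
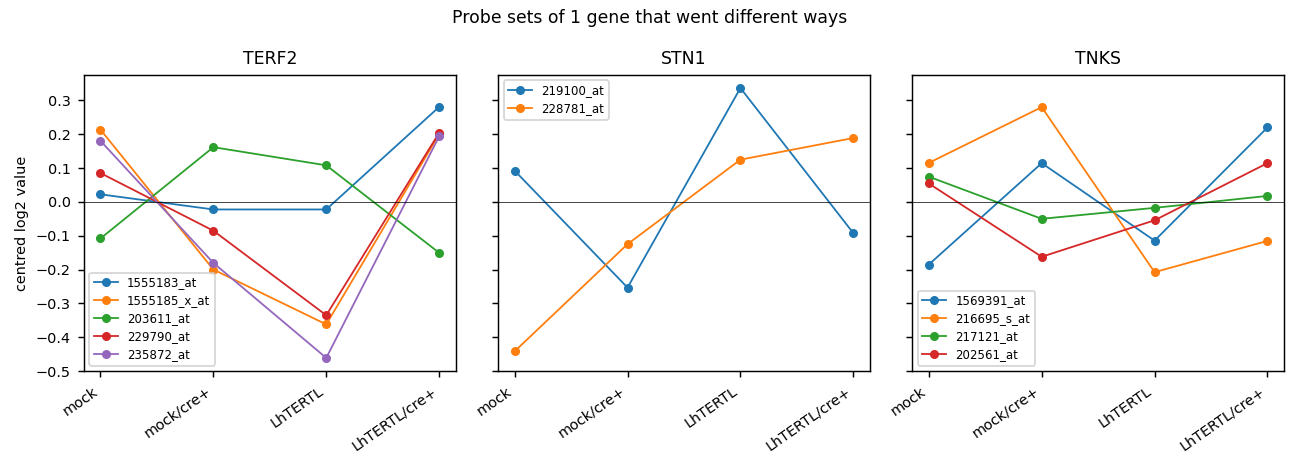
Centred log2 values (vertical axis) of each probe set of TERF2, STN1 and TNKS on the 4 arrays, with a coloured line per probe set. In TERF2, 203611_at is high where 235872_at, 1555185_x_at and 229790_at are low; in STN1, mock is the lowest line at -0.44 in 228781_at but stands at 0.09 in 219100_at.

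The TNKS2 gene mean was 0.09 in mock, -0.28 in mock/cre+, -0.01 in LhTERTL and 0.05 in LhTERTL/cre+. In this mean mock/cre+ was the lowest line, 0.26 below LhTERTL. LhTERTL was 0.10 below mock, and LhTERTL/cre+ was 0.33 above mock/cre+. The difference between groups was 0.11 ± 0.17 (log2, SE, n = 2 per group), with a 95% interval from -0.34 to 0.57 (limma). In 218228_s_at both long arrays were above both short ones, with mock/cre+ at -0.42 and mock at -0.06, and its difference was 0.34 ± 0.17. The other 3 TNKS2 probe sets differed between groups by -0.05 to 0.10. In 1 of them, 241909_at, mock/cre+ was not the lowest line, at -0.01 against -0.06 in LhTERTL.

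The lines matched by Cre status were then set side by side to see which members differed in the same direction with and without Cre. TINF2, POT1 and STN1 were higher in the long-telomere line of both pairs (20.5% of all genes) and TERF1 was lower in both (22.1%). The other 6 genes were lower in LhTERTL than in mock and higher in LhTERTL/cre+ than in mock/cre+: TERF2, TERF2IP, ACD, CTC1, TNKS and TNKS2. This order was found in 32.8% of all genes, and the reverse order, in 24.6% of all genes, was found in 0 of the 10. TNKS barely belongs to the 6. Its difference was -0.11 without Cre but only 0.01 with Cre, and 2 of its 4 probe sets had these directions. Among probe sets, 14 of 27 members went lower without Cre and higher with Cre, where 32.2% of all probe sets did. Both differences were at least 1.2-fold, a limit chosen after the values were seen, in 7 member probe sets, where 4.56% of all probe sets were. Those were 3 probe sets of TERF2, which correlated at 0.95 to 0.99 over the 4 arrays, and 1 each of TERF2IP, ACD, CTC1 and TNKS2. The reverse order at that size was found in 0 members and in 5.19% of all probe sets. The TERF2 probe set 203611_at had the reverse order, at 0.22 and -0.31 (log2), but missed the limit in the pair without Cre. These counts have no test, because each line has 1 array. The 1.2-fold limit was set on these same values, so its member counts cannot be weighed against the shares of all probe sets. The median difference of the member genes was -0.11 without Cre (all genes -0.03) and 0.22 with Cre (all genes 0.01).

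**Figure D4:**
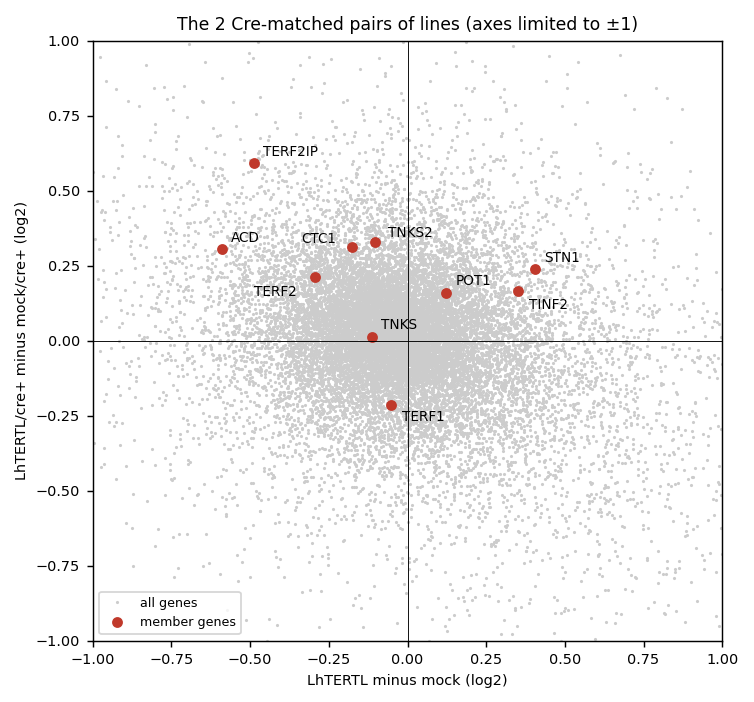
Difference in the pair without Cre (horizontal axis, log2) against the pair with Cre (vertical axis, log2), with red points for the 10 member genes and grey points for all genes within the axes. STN1, TINF2 and POT1 lie in the upper right, TERF1 in the lower left, and the other 6 in the upper left, with TERF2IP at -0.49 and 0.59 and ACD at -0.59 and 0.31. TNKS, at -0.11 and 0.01, lies barely in the upper part.

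Sizes of 1.5-fold or more were few. LhTERTL was at least 1.5-fold below mock in 2 of the 27 member probe sets, where 4.48% of all probe sets were, and at least 1.5-fold above it in 0, where 5.51% were. The 2 were ACD and 235872_at of TERF2. With arrays scaled to equal SD neither reached that size, and the counts became 0 below and 1 above. LhTERTL/cre+ was at least 1.5-fold above mock/cre+ in TERF2IP alone (2.28% of all probe sets) and below it in 0 (3.8%). Among the long-telomere lines, which differ in hTERT and Cre, LhTERTL was at least 1.5-fold lower in 2 member probe sets, again ACD and 235872_at of TERF2 (5.52% of all probe sets), and higher in 0 (5.76%). Among the short-telomere lines, mock/cre+ was at least 1.5-fold below mock in TERF2IP and in 222563_s_at of TNKS2 (3.9% of all probe sets), and above it in 0 (6.05%).

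Cre was the other labelled factor. Over all 4 arrays, 0 of the 27 member probe sets passed the test of Cre against no Cre (limma, Benjamini-Hochberg adjusted), where 0.0% of all probe sets did. At an unadjusted p under 0.05, 1 was found, the TNKS probe set 1569391_at, where 6.13% of all probe sets were. That background of 3347 probe sets became 5826 without mock and 1121 without mock/cre+, and the member count became 0 without mock/cre+ or without LhTERTL. The largest gene differences were 0.26 ± 0.25 for ACD and -0.20 ± 0.28 for TERF2IP (Cre minus no Cre, log2, SE, n = 2 per group). By rank of the gene means, mock/cre+ was the lowest line in 6 of the 10 genes (30.4% of all genes), LhTERTL in 3 (30.5%) and LhTERTL/cre+ in 1, that of TERF1 (18.8%). The gap from the lowest line to the next was set against the gene's standard error, scaled to a difference between 2 single arrays. That error holds the differences between the distinct lines of a group and is not an error between replicates. The gap exceeded it only in ACD, with LhTERTL lowest by 0.40 against 0.39, and in TNKS2, with mock/cre+ lowest by 0.26 against 0.24. In the other 8 genes the gap was within the error, and in TINF2, POT1 and STN1 mock/cre+ lay only 0.03, 0.04 and 0.01 below mock. With 1 array per line, the lowest line cannot be firmly ranked below its neighbour in any gene.

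The genes closest in pattern to the 2 members with the widest range were found by the Euclidean distance between gene means over the 4 arrays, each centred on its mean. For TERF2IP they were CPLANE2 at a distance of 0.03, DPY19L1P1 at 0.05 and ARRDC1-AS1 at 0.06 on the log2 scale. For ACD they were SOCS3 at 0.04, MRPS30 at 0.04 and NSUN2 at 0.05. These matches, out of 19775 genes, are a description over 4 arrays.

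Other telomere genes were read from 4 lists. The CST partners were TEN1, not analysed here, and the 4 subunits of DNA polymerase alpha-primase. Of these 4, 0 passed the test; their median difference was -0.25, with POLA1, the catalytic subunit, at -0.69 ± 0.42 and PRIM1, the primase catalytic subunit, at -0.35 ± 0.53 (long minus short, SE, n = 2 per group, limma). Both were lowest in LhTERTL, at -0.94 and -1.07. LhTERTL/cre+ stood at 0.06 for POLA1 and at 0.36 for PRIM1, so the long-telomere lines lay on both sides of mock in each. In the pairs matched by Cre status, POLA1 was lower in both, by -0.87 without Cre and -0.51 with Cre. PRIM1 differed by -0.81 without Cre and 0.11 with Cre. POLA2 was also lowest in LhTERTL, at -0.57, but PRIM2 was lowest in mock, at -0.60. All 4 stood higher in both lines with Cre than in both without it, as 17.4% of all genes did, by 0.47 to 0.97 (limma, adjusted p from 0.772 to 0.774).

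Of 17 telomere-bound accessory factors, 0 passed the test, and 3 were higher and 6 lower in both pairs (20.5% and 22.1% of all genes). Their median difference was -0.10. DCLRE1B, the Apollo nuclease that TRF2 recruits, differed by -0.49 ± 0.37 and BLM, a helicase that TRF1 and TRF2 bind, by -0.46 ± 0.48 (SE, n = 2 per group, limma). Both were lowest in LhTERTL and highest in mock/cre+. Of 12 tankyrase partners and targets, 10 were measured and 0 passed; the median was -0.04, with RNF146, the ubiquitin ligase that reads tankyrase marks, at 0.24 ± 0.19 and BLZF1 at 0.23 ± 0.14. RNF146 was lowest in mock/cre+, at -0.32, as were TNKS2 and 30.4% of all genes. Of 9 telomere damage kinases and mediators, 0 passed, and 0 were higher and 4 lower in both pairs (20.5% and 22.1% of all genes). Their median was -0.09, with PARP1 at -0.32 ± 0.24 and H2AX at -0.23 ± 0.17. None of the lists was tested as a set. The median of all genes was -0.01. The order seen in 6 of the 10 member genes, lower without Cre and higher with Cre, was not theirs alone. It was found in 6 of the 10 measured tankyrase partners and targets and in 2 of the 4 measured CST partners. Among the accessory factors 4 of 17 had it, and among the damage genes 3 of 9 (32.8% of all genes).

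**Figure D5:**
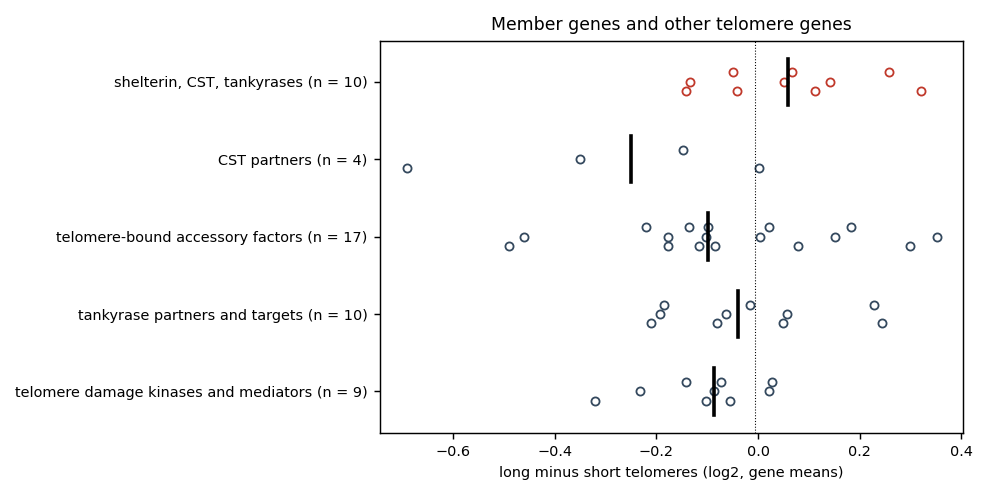
Difference between long- and short-telomere arrays (horizontal axis, log2, gene means, n = 2 arrays per group) for each gene of 5 lists, with a circle per gene and a black bar at the list median; the dotted line is the median of all genes. The member genes lie between -0.14 and 0.32, while POLA1 among the CST partners stands at -0.69.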

How the data were processed

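RNA from 4 PC-3 lines was measured on Affymetrix arrays, 1 array per line. Per the submitters' processing notes, the deposited log2 values came from RMA, which corrects background, normalizes quantiles and summarises probes; its software and version are not stated in the labels. The median of every row was 0 within 5.0e-07, so rows had been centred and the filter on levels could not be run. Of 54675 probe sets, 62 controls were left out; 41091 carried 1 symbol, 1801 several and 11721 were unnamed here. Entrez numbers matched 41037 to RefSeq (GRCh38.p14), changing 0 symbols. A gene is the mean of its probe sets. Groups came from the telomere length in the labels.

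Long against short and Cre against no Cre were each fitted over all features in limma 3.58.1 under R 4.3.3 (lmFit, eBayes), with Benjamini-Hochberg adjustment at 0.05; ± is the moderated SE. Scripts were tested on simulated data. Python 3.11.15 was used for the rest. Members, lists and the naming rule (all members; the 2 largest differences per list) were chosen with earlier results of these data known. Alternatives covered blocks, priors, scaling, probe set choice and leaving out arrays. In the authors' deposited list of lower probe sets, 2 of 4 columns do not hold the values of the lines that head them, so their values were not used here.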

Additional observations from a re-analysis of the deposited data

Results flagged for a closer look

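In 6 genes the difference between long- and short-telomere lines had opposite signs with Cre and without it. The gap between the pairs (log2, pair with Cre minus pair without) was 1.08 for TERF2IP, 0.90 for ACD, 0.50 for TERF2, 0.49 for CTC1, 0.43 for TNKS2 and 0.13 for TNKS. For TNKS the difference with Cre was only 0.01. Each gap rests on 4 single arrays and was not tested. ACD and TERF2 were lowest in LhTERTL, while TERF2IP, CTC1 and TNKS2 were lowest in mock/cre+. Groups of 2 arrays are too small for a search for outlying samples.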

How the results depend on the processing

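No member probe set or gene passed the test under any alternative run, with a smallest adjusted p of 0.767 over the genes (limma), and 0 probe sets of the whole array were called for telomere length or Cre. Over 8 alternatives that kept all arrays, 72 of 76 member gene differences kept their direction. Part of this count was fixed in advance, because the block and the alternative priors change only the error and cannot move a difference. Nor can the choice of probe set for a gene with 1 probe set. CTC1 stood at 0.00 with the median of its probe sets, and 3 turned: TERF2 at 0.00616 with arrays scaled to equal SD, and TNKS at 0.0533 and TNKS2 at -0.0463 without probe sets ending in _s_at, _x_at or _a_at. Leaving out each array in turn, TINF2 ran from 0.15 to 0.36, STN1 from 0.23 to 0.41, POT1 from 0.12 to 0.16 and TERF1 from -0.22 to -0.05, without a change of sign. The sign changed for TERF2 (-0.22 to 0.14), TERF2IP (-0.32 to 0.42), ACD (-0.50 to 0.21), CTC1 (-0.10 to 0.24), TNKS (-0.129 to 0.0291) and TNKS2 (-0.0708 to 0.295). With arrays scaled to equal SD, 1 member probe set was 1.5-fold higher and 0 lower in LhTERTL than mock, and 2 were higher in LhTERTL/cre+ than mock/cre+. At 2-fold the counts were 0 in all 4 pairs. The directions of the 10 genes in both Cre-matched pairs held under both scalings tried, although TNKS with Cre stood at only 0.002 with array medians subtracted. At an unadjusted p under 0.05 the telomere length count of 695 probe sets became 415 over probe sets with 1 symbol alone and ran from 519 to 3167 without single arrays, and that of 156 genes became 368 with Cre as a block and ran from 148 to 1303. The Cre count of 3347 probe sets ran from 1121 to 5826. The filter on mean level could not be run. The number of arrays limits the precision.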
